A study of Mus musculus with 21 samples.

Results

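The 6 genes described here, Ptx3, Clcf1, Emp1, Cd109, S100a10 and B3gnt5, belong to the set known as A2 astrocyte genes and were taken without the set's transglutaminase gene, Tgm1. They are a part of that set: Ptgs2, Slc10a6, Tm4sf1 and Cd14 were also measured and are not among the 6. Those genes are described further below, and not all of them rose. They were found by symbol among 757 features of a NanoString nCounter panel for mouse neuroinflammation, in which barcoded probes are hybridized to a fixed set of transcripts and counted. A symbol was paired with 703 features and 54 had none, and all 6 genes were among the 740 features that passed the filter on low values. RNA came from the right hemisphere of male C57BL6J mice, which is the injured side, and the tissue was not sorted. There were 21 samples in 7 groups of 3 mice. Traumatic brain injury (TBI) was made by controlled cortical impact with the skull opened, followed by PBS as vehicle or by CR2-Crry, a fusion protein that brings the mouse complement inhibitor Crry to sites of complement activation. The groups were sham mice and, for each of days 3, 7 and 28 after injury, mice given PBS (PBS TBI) and mice given CR2-Crry (CR2-Crry TBI). CR2-Crry was dosed at 16 mg/kg into a vein 1 h after injury, and both day 28 groups were dosed again into the peritoneum, so day 28 differs from the earlier days in dosing as well as in time. Sham mice had anesthesia and a cut in the scalp but no craniotomy. They were 12, 13 and 16 weeks old for replicates 1, 2 and 3, and the injured mice were 12 weeks old on day 3, 13 on day 7 and 16 on day 28. The part of age and of the craniotomy in changes from sham was not tested.

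Reactive astrocytes are astrocytes that have changed their shape and gene expression after injury or inflammation. In mice, the genes induced in astrocytes by inflammation with bacterial lipopolysaccharide were named A1, those induced after blockage of the middle cerebral artery were named A2, and those induced by both were named pan-reactive. These classes are gene lists, and their members are also expressed by other cells, among them endothelial cells, fibroblasts and macrophages. In RNA from whole tissue, fewer cells of a type and less RNA per cell cannot be told apart.

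The values are normalized signal, which is linear and scaled by the authors to housekeeping genes. A change is given as a difference of log2 values with its standard error (SE), and the word called is used for an adjusted p below 0.05 in limma, with Benjamini-Hochberg adjustment over all 740 tested features. The astrocyte list was checked first: 5 of its 10 markers (Aldh1l1, Slc1a3, Gja1, S100b and Sox9) were present by name, and none fell under 547 in any sample. Their summed signal was 16131 to 16981 in sham mice and 22874 to 24159 in PBS TBI mice on day 3. The median feature rose from 242 to 257 in sham mice to 373 to 389 on day 3, 396 to 424 on day 7 and 297 to 329 on day 28 of PBS TBI. For that reason changes were also computed after centring every sample on its median, which lowered the changes by 0.60, 0.73 and 0.34 on days 3, 7 and 28 of PBS TBI and by 0.65, 0.56 and 0.33 in CR2-Crry TBI. These shifts were larger than the median change over all tested features, 0.30, 0.36 and 0.21 in PBS TBI and 0.29, 0.24 and 0.21 in CR2-Crry TBI. After centring, the median change from sham was therefore under 0. Centring assumes a stable median feature, and a call lost or reversed after it depends on that assumption. One sham library stood apart in pan-reactive genes: Lcn2, a secreted acute phase protein, was 34.6, 168 and 2687 in sham replicates 1, 2 and 3. None of the 6 genes was raised in that library, and their values were within or below the range of the other sham mice except for Ptx3, at 26.0.

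For the promoters, RefSeq on GRCm38.p6 gave a start site for Ptx3, Emp1 and B3gnt5. The 250 bases before the start are shown for Emp1 and Ptx3, the 2 genes with the lowest ratio of CR2-Crry to PBS TBI on day 7, 5′ to 3′, with matches in capitals to the AP-1 motif TGANTCA and the STAT motif TTCNNNGAA. Both motifs read the same on either strand, and the NF-kB consensus was searched on both strands as well.
Emp1, first start, chr6:135362681-135362930, plus strand: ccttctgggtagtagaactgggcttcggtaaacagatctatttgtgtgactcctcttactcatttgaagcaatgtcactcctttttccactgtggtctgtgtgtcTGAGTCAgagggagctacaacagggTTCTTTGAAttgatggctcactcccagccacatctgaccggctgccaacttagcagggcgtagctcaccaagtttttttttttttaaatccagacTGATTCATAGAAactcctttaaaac
Ptx3, chr3:66219637-66219886, plus strand: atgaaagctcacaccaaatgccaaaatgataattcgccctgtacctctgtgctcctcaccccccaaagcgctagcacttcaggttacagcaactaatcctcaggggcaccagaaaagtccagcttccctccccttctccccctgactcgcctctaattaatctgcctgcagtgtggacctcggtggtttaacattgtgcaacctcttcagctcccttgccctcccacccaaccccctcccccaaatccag
The Emp1 stretch held AP-1 matches TGAGTCA at -145 and TGATTCA at -25 and STAT matches TTCTTTGAA at -120 and TTCATAGAA at -22, counted from the start site to the first base of each, and the last of these overlaps the AP-1 match before it. No match to the 3 motifs was in the Ptx3 stretch, in that of a second Emp1 start or in that of B3gnt5. Of 32817 stretches of this length before mouse start sites, 6.75% held the AP-1 motif, 7.02% the STAT motif and 7.25% the NF-kB consensus. A match describes letters and not binding, which was not measured.

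All 6 genes were higher in PBS TBI than in sham mice on day 3, on day 7 and on day 28. In each of these comparisons all 6 were called, and the 3 injured mice lay above all 3 sham mice for every gene. Clcf1 is counted in both results, though its sham values lay under the filter on low values. It was tested only because of its level in injured mice. Ptx3 and Emp1 rose most on day 3, 8.28- and 5.65-fold, and S100a10 rose least, 2.20-fold. High shares of the whole panel also rose: 51.6% of tested features were called higher on day 3, 57.3% on day 7 and 44.5% on day 28, and 53.8%, 59.6% and 50% had groups that did not overlap in that direction. The median change of the 6 genes was 1.71, 1.32 and 0.77 on days 3, 7 and 28, beside 0.30, 0.36 and 0.21 over all tested features.

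**Figure D1:**
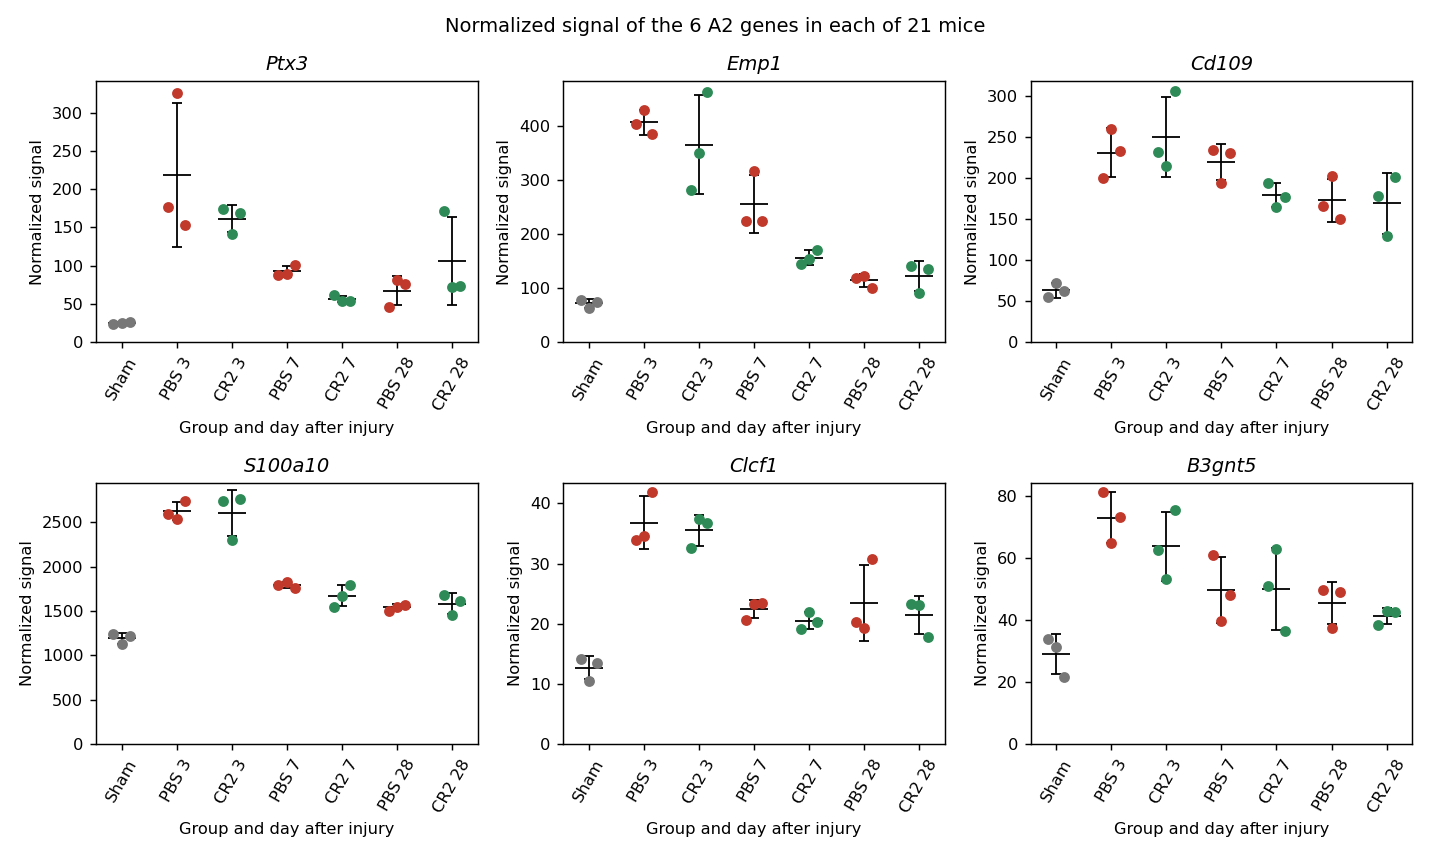
Normalized signal (y axis, linear, from 0) of each of the 6 genes in sham, PBS TBI (PBS) and CR2-Crry TBI (CR2) mice on days 3, 7 and 28. Points are single mice, horizontal bars are means and error bars are SDs (n = 3). Every injured mouse lies above every sham mouse for all 6 genes, and CR2-Crry TBI day 28 has 1 mouse with Ptx3 at 172 beside 72.9 and 73.2.

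Ptx3 encodes long pentraxin 3, a secreted pattern recognition protein that binds C1q and factor H. Its signal was 23.6, 25.4 and 26.0 in the 3 sham mice and 177, 326 and 153 in PBS TBI on day 3, then 87.9, 89.6 and 101 on day 7 and 45.7, 81.0 and 75.8 on day 28. Day 3 had 1 mouse, replicate 2, far above the other 2, and the 3 days did not overlap with sham or with one another. Against sham the log2 change was 3.05 (SE 0.29) on day 3, 1.89 (SE 0.29) on day 7 and 1.39 (SE 0.29) on day 28, with adjusted p of 2.76e-08, 1.29e-05 and 0.00068 in limma. The change on day 3 ranked 18 of 740 and was 2.72 (SE 0.29) without replicate 2. That mouse also had the highest Lcn2 of its group, at 3208 beside 1303 and 1588, and the part of this in its Ptx3 value was not tested. Between days, Ptx3 fell by 1.16 (SE 0.29) from day 3 to day 7, with an adjusted p of 0.00746, but this was 0.0562 without replicate 2 of day 3. The change from day 7 to day 28 was -0.50 (SE 0.29), with an interval of -1.12 to 0.12, and was not called.

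Clcf1 encodes cardiotrophin-like cytokine factor 1, a secreted member of the interleukin-6 family that signals through the ciliary neurotrophic factor (CNTF) receptor. It was the weakest of the 6 genes, at 14.2, 10.5 and 13.4 in sham mice, 34.0, 34.5 and 41.9 on day 3, 20.7, 23.2 and 23.5 on day 7 and 20.3, 19.3 and 30.7 on day 28 of PBS TBI. The sham values lay under the filter of 20, so Clcf1 was tested because of its level in injured mice, and its lowest sham value was 12 times the smallest step between values of that sample. Day 3 was above the later days, and days 7 and 28 overlapped. The changes from sham were 1.54 (SE 0.19), 0.83 (SE 0.19) and 0.86 (SE 0.19), with adjusted p of 7.9e-07, 0.00078 and 0.00101. After centring, that of day 7 was 0.11 and lost its call, with an adjusted p of 0.649. From day 3 to day 7 Clcf1 fell by 0.71 (SE 0.19, adjusted p = 0.0111), and this was 0.0513 without replicate 3 of day 3. It was 0.03 (SE 0.19) from day 7 to day 28.

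Emp1 encodes epithelial membrane protein 1, which crosses the plasma membrane several times and belongs to the family of the myelin protein PMP22. Its signal was 78.6, 62.9 and 75.3 in sham mice, 404, 431 and 386 on day 3, 225, 317 and 224 on day 7 and 119.7, 123 and 101 on day 28 of PBS TBI. No value of one day overlapped with another, and each day was lower than the one before. The changes from sham were 2.50 (SE 0.18), 1.81 (SE 0.18) and 0.67 (SE 0.18), with adjusted p of 6.19e-10, 4.58e-08 and 0.0055. Emp1 fell by 0.69 (SE 0.18, adjusted p = 0.00978) from day 3 to day 7 and by 1.14 (SE 0.18, adjusted p = 5.15e-05) from day 7 to day 28. After centring, the change from sham on day 28 was 0.32, with an adjusted p of 0.103, and was not called.

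Cd109 encodes a protein tied to the outer face of the plasma membrane by a lipid anchor, which is related to alpha-2-macroglobulin and complement C3 and acts as a co-receptor that dampens TGF-beta signaling. It was 55.0, 72.6 and 62.8 in sham mice, 201, 260.1 and 233 on day 3, 235, 195 and 231 on day 7 and 166, 202 and 151 on day 28 of PBS TBI. Days 3 and 7 overlapped, days 7 and 28 overlapped, and no injured mouse was near the sham range. The changes from sham were 1.87 (SE 0.17), 1.80 (SE 0.17) and 1.45 (SE 0.17), with adjusted p of 1.13e-08, 1.52e-08 and 9.74e-07, and they kept their calls after centring, at 1.27, 1.07 and 1.11. The change from day 3 to day 28 was -0.42 (SE 0.17), with an adjusted p of 0.0504, and was not called. It lay close to the threshold: 6 of 11 alternatives called it, as did 2 of the 6 fits that left out 1 mouse, those without replicate 1 of day 3 and without replicate 2 of day 28, at adjusted p of 0.0359 and 0.0265. On day 28 Cd109 was 2.72-fold above sham, beside 2.62-fold for Ptx3 and 1.29- to 1.82-fold for the other 4 genes.

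S100a10 encodes p11, a member of the S100 family that forms a complex with annexin A2 at the plasma membrane. It was the strongest of the 6 genes in signal, at 1239, 1125 and 1213 in sham mice, 2595, 2538 and 2739.8 on day 3, 1796, 1826 and 1763 on day 7 and 1502, 1548 and 1571 on day 28 of PBS TBI. Its replicates lay close together, and the 4 groups did not overlap. The changes from sham were 1.14 (SE 0.069), 0.59 (SE 0.069) and 0.37 (SE 0.069), with adjusted p of 3.81e-11, 3.02e-07 and 0.000182. Centring changed the later days: the day 7 change became -0.14, called in the opposite direction at an adjusted p of 0.0361, and that of day 28 became 0.03 and was not called. On day 7 centring lowered every change by 0.73, beside a median change of 0.36 over all tested features. On day 3 the centred change stayed called, at 0.54. The fall from day 3 to day 7 was 0.55 (SE 0.069, adjusted p = 1.31e-05) and kept its direction after centring, at -0.67, while the change from day 7 to day 28, -0.22 (SE 0.069), turned to 0.17.

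B3gnt5 encodes the Golgi glycosyltransferase that starts the lacto-series of glycosphingolipids. Its signal was 33.8, 31.5 and 21.8 in sham mice, 81.3, 64.8 and 73.3 on day 3, 61.0, 39.8 and 48.0 on day 7 and 49.7, 37.6 and 48.9 on day 28 of PBS TBI. All injured mice were above all sham mice, though the lowest of day 28 was close to the highest sham value. Day 3 lay above day 7 without overlap, and days 7 and 28 overlapped. The changes from sham were 1.35 (SE 0.22), 0.78 (SE 0.22) and 0.66 (SE 0.22), with adjusted p of 1.97e-05, 0.004 and 0.0164. The call of day 28 was lost without sham replicate 3, which had the lowest value, at 0.47 (SE 0.23) and an adjusted p of 0.0977. It was also lost without replicate 1 or 3 of day 28, with adjusted p of 0.0599 and 0.0568. After centring, the changes of days 7 and 28 were 0.048 and 0.32 and neither was called.

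**Figure D2:**
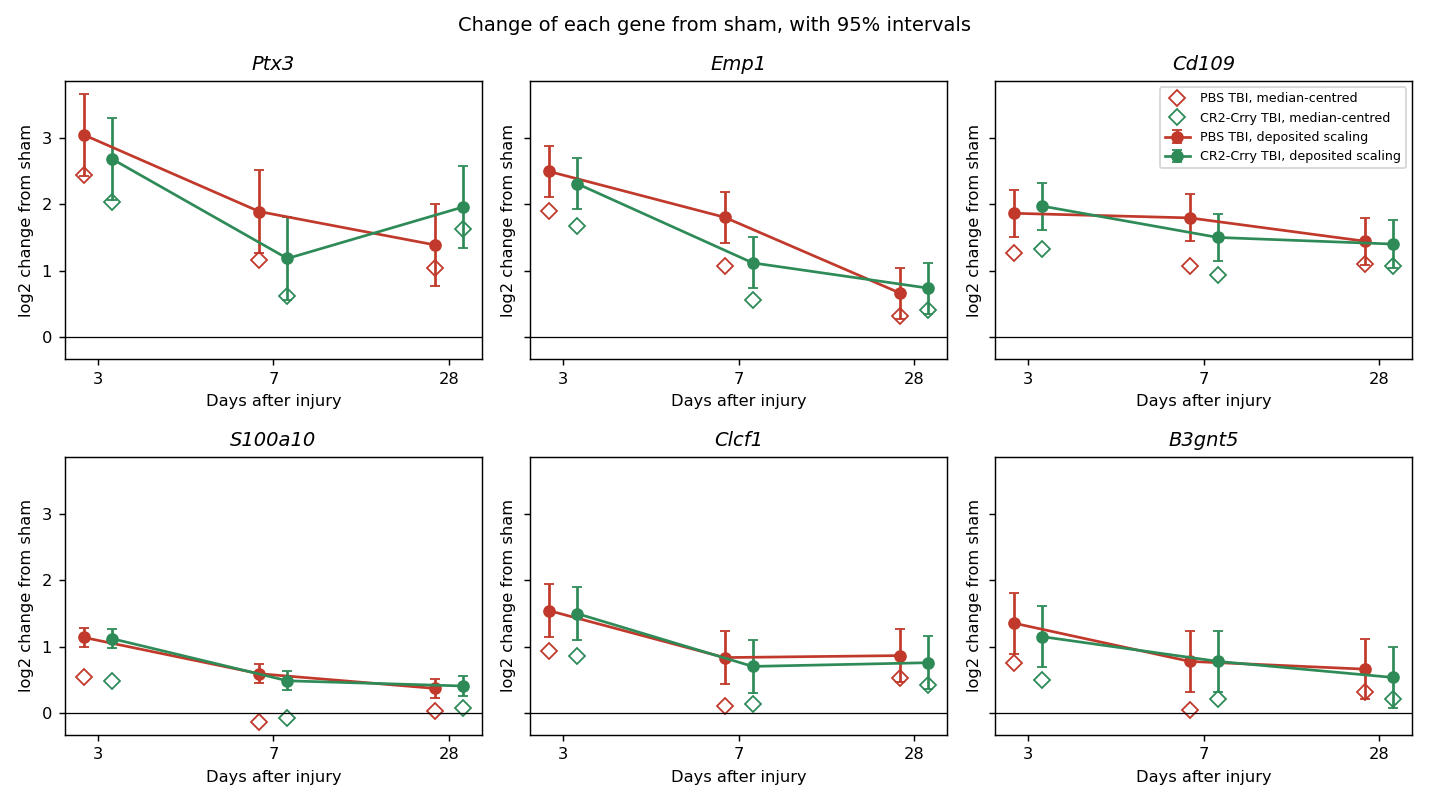
log2 change from sham (y axis) of each gene by day after injury (x axis, evenly spaced) in PBS TBI and CR2-Crry TBI, both against the same 3 sham mice. Filled circles are the changes on the deposited scaling with 95% intervals and open diamonds are the changes after centring each sample on its median, where S100a10 lies at -0.14 and -0.076 on day 7.

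The 6 genes differed in how much of the day 3 rise was left later. Of the rise of the mean of PBS TBI over sham on day 3, 12.6% was left on day 28 for Emp1, 22.0% for Ptx3, 24.3% for S100a10, 37.2% for B3gnt5, 44.5% for Clcf1 and 65.3% for Cd109. For Ptx3 this share was 30.4% without replicate 2 of day 3. These are ratios of group means on the deposited scaling with no test, and whether the genes differed from one another in their decline was not tested. The shares were not computed after centring. There the log2 changes from sham on days 3 and 28 were 0.54 and 0.03 for S100a10 and 1.90 and 0.32 for Emp1. In the tests within genes, 4 of 6 were called lower on day 7 than on day 3 (Ptx3, Emp1, S100a10 and Clcf1), where 6.62% of tested features were called lower. On day 28 against day 7, 2 of 6 were called lower (Emp1 and S100a10), beside 39.1% of features, and on day 28 against day 3, 5 of 6 were, all but Cd109, beside 31.2%. Of these, B3gnt5 lost its call without replicate 1 of day 3 or replicate 2 of day 28, at adjusted p of 0.0582 and 0.0718, and B3gnt5 and Clcf1 lost theirs after centring. For S100a10, the change from day 7 to day 28 was 0.17 after centring, called in the opposite direction. Of the 740 tested features, 137 were called higher on day 7 than on day 3 and 49 lower, with a median change of 0.094.

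**Figure D3:**
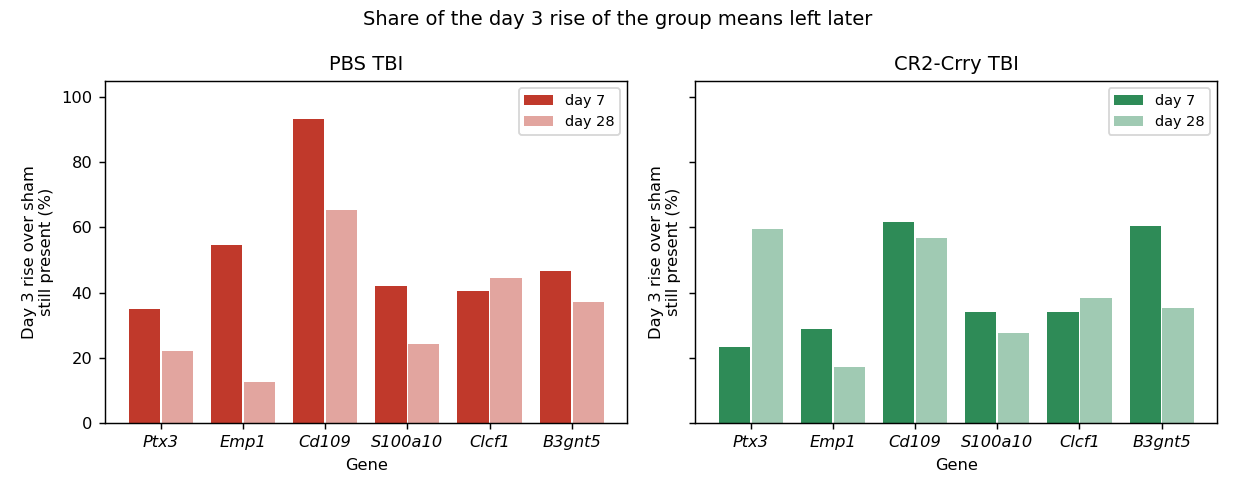
Share (y axis, percent) of the day 3 rise of the group mean over sham, on the deposited scaling, that was left on day 7 and day 28, for each gene in PBS TBI and in CR2-Crry TBI. In PBS TBI Cd109 kept the most on day 28, 65.3%, and Emp1 the least, 12.6%; the CR2-Crry value of Ptx3 on day 28, 59.4%, was 35.2% without 1 mouse.

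The same 6 genes were higher in CR2-Crry TBI than in sham mice on each day, against the same 3 sham mice as above, so the 2 sets of changes are not independent. All 6 were called on days 3, 7 and 28, beside 53%, 48% and 44.3% of features called higher. Clcf1 is again among the 6, though it passed the filter only through injured mice. On each day all 6 had no overlap with sham, beside 54.7%, 52% and 47.6% of features. The median change of the 6 genes was 1.74, 0.95 and 0.75, beside 0.29, 0.24 and 0.21 for all tested features. Ptx3 was 6.44-fold above sham on day 3, 2.28-fold on day 7 and 3.90-fold on day 28, the last with 1 high mouse. Emp1 was 4.97-, 2.18- and 1.67-fold and Cd109 3.93-, 2.84- and 2.65-fold above sham, and S100a10 was again lowest in fold, at 2.17, 1.40 and 1.33. The call of B3gnt5 on day 28, 0.53 (SE 0.22) with an adjusted p of 0.0454, was lost in 5 of 6 fits that left out 1 mouse, among them that without sham replicate 3, at 0.34 and 0.222. After centring, 3 of 6 genes kept the call on day 7 (Ptx3, Emp1 and Cd109, from 0.56 to 0.94) and the same 3 on day 28 (from 0.41 to 1.63).

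The second question was whether the 6 genes differed between CR2-Crry and PBS in injured mice. On day 3 and on day 28 none of the 6 was called, as for every other feature (0% and 0% of 740 called), though 27 and 15 features had an unadjusted p under 0.05 in limma. On day 7, Emp1 alone of the 6 was called, and it was lower with CR2-Crry, beside 7.16% of features called lower. Emp1 and Ptx3 were the 2 genes whose day 7 groups did not overlap, both lower with CR2-Crry. Over all tested features 29.5% had groups apart in that direction, so 2 of 6 is near the share of the panel. The median change of the 6 genes on day 7 was -0.21, beside -0.11 over all features.

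Emp1 in CR2-Crry TBI was 282, 350.1 and 464 on day 3, 145, 155 and 171 on day 7 and 141, 90.5 and 137 on day 28. On day 7 every CR2-Crry value was under the lowest PBS value of 224, and on days 3 and 28 the treatments overlapped. The day 7 change was -0.69 (SE 0.18), or 1.61-fold lower, with an interval of -1.07 to -0.30 and an adjusted p of 0.0361. This call was made in 1 of the 6 fits that left out 1 mouse of these groups, that without PBS replicate 3, and was lost in the other 5, with adjusted p of 0.0587 to 0.155. Over these fits the change ran from -0.77 to -0.52. After centring the change was -0.52 and stayed called just under the threshold, and 8 of 11 alternatives in all kept the call. The change was -0.18 (SE 0.18) on day 3 and 0.075 (SE 0.18) on day 28.

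Ptx3 in CR2-Crry TBI was 174, 141 and 169 on day 3, 61.7, 54.5 and 54.5 on day 7 and 172, 72.9 and 73.2 on day 28. On day 7 the CR2-Crry values were all under the PBS values, and on day 28 replicate 1 was far above the other 2. The day 7 change was -0.71 (SE 0.29), with an interval of -1.33 to -0.087 and an adjusted p of 0.134, so it was about as far from 0 as that of Emp1, with a wider error, and was not called. On day 28 the change was 0.57 (SE 0.29), with an interval of -0.048 to 1.19, and it was 0.16 (SE 0.26) without replicate 1. That mouse had the highest Lcn2 of its group at 4668, beside 1063 and 4550, and the highest summed signal of 4 monocyte and macrophage markers, 378 beside 300.2 and 350.3. The part of these in its Ptx3 value was not tested.

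The other 4 genes showed no difference past the threshold on any day. Cd109 in CR2-Crry TBI was 232, 215 and 306 on day 3, 195, 165 and 177 on day 7 and 178, 129 and 202 on day 28. Its day 7 change was -0.29 (SE 0.17), with an interval of -0.65 to 0.061. S100a10 was 2737, 2301 and 2761 on day 3, 1549, 1674 and 1789 on day 7 and 1684, 1456 and 1607 on day 28. Its intervals were the narrowest of the 6 genes, -0.16 to 0.13, -0.25 to 0.038 and -0.11 to 0.18. Clcf1 was 32.6, 37.4 and 36.7 on day 3, 19.2, 22.0 and 20.3 on day 7 and 23.3, 23.2 and 17.8 on day 28. Its day 7 change was -0.13 (SE 0.19), with an interval of -0.54 to 0.27. B3gnt5 was 62.7, 53.4 and 75.5 on day 3, 51.1, 62.8 and 36.4 on day 7 and 38.5, 43.1 and 42.6 on day 28. Its interval on day 7, -0.46 to 0.46, was the widest after that of Ptx3. Centring turned the sign of the day 7 changes of S100a10 and Clcf1, to 0.061 and 0.035, neither of them called. The treatments overlapped for all 4 genes on every day.

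**Figure D4:**
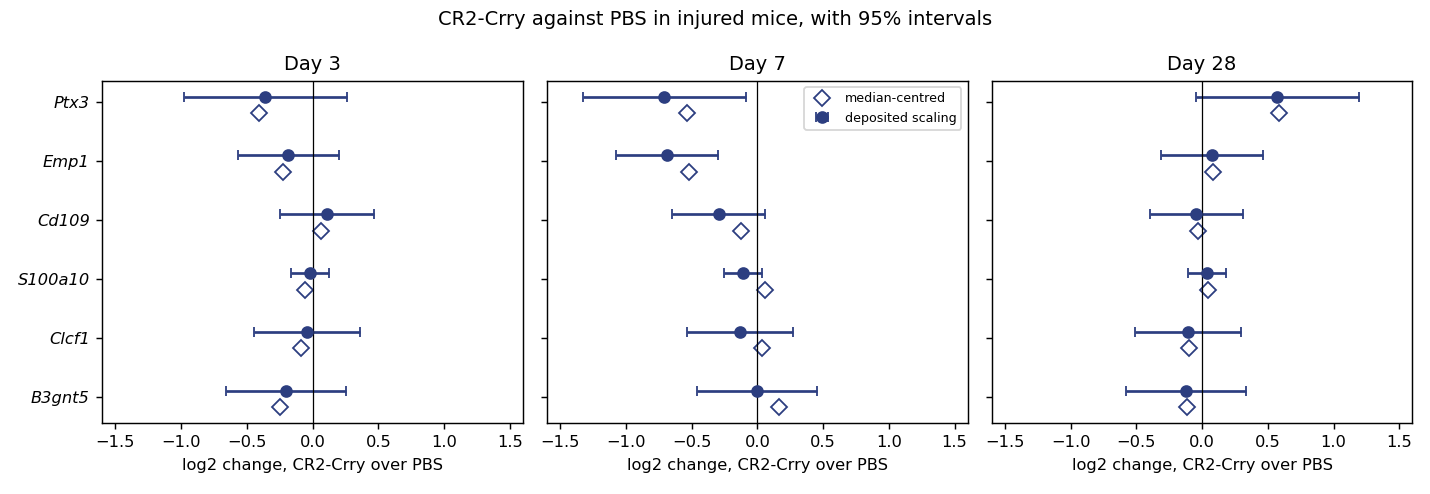
log2 change of CR2-Crry over PBS TBI (x axis) for each gene on days 3, 7 and 28. Filled circles are the changes on the deposited scaling with 95% intervals and open diamonds are the changes after centring each sample on its median; on day 7 the intervals of Ptx3 and Emp1 lie under 0, and of the 2 the Emp1 change was called.

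Averaged over the 3 days, none of the 6 genes was called (0% of features), and Emp1 had the lowest change, -0.27 (SE 0.11), with an adjusted p of 0.417. Whether the CR2-Crry effect differed between days was tested as an interaction. No gene was called for day 7 against day 3 (0% of features), day 28 against day 7 (0%) or day 28 against day 3 (0%), though 124, 144 and 25 features had an unadjusted p under 0.05. From day 7 to day 28 the effect moved by 1.28 (SE 0.42) for Ptx3 and 0.76 (SE 0.26) for Emp1, with adjusted p of 0.144 and 0.151. Both passed in a fit without CR2-Crry day 28 replicate 2, at 0.0321 and 0.0185, and without replicate 1 of that group both were at 0.330.

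Within CR2-Crry TBI, 4 of 6 genes were called lower on day 7 than on day 3, beside 12.2% of features. They were Ptx3 at -1.50 (SE 0.29), Emp1 at -1.19 (SE 0.18), Clcf1 at -0.80 (SE 0.19) and S100a10 at -0.64 (SE 0.069), with adjusted p from 2.38e-06 to 0.00539. None of the 6 was called between days 7 and 28, beside 22.3% of features called lower. For Ptx3 the change was 0.77 (SE 0.29), upward and without overlap, with an adjusted p of 0.0637. It was 0.36 (SE 0.26) without replicate 1 of day 28, and it was called without replicate 2 or 3, at 0.0398 and 0.0355. On day 28 against day 3, 5 of 6 were called lower, beside 33.1%, with Ptx3 as the exception at -0.73 (SE 0.29) and an adjusted p of 0.0539. Without replicate 1 of day 28 it was -1.14 (SE 0.26), with an adjusted p of 0.00194. Of the 5 calls, that of B3gnt5 was kept in 1 of 6 fits without 1 mouse, and that of Cd109 was lost without replicate 3 of day 3 or replicate 2 of day 28, at 0.0736 and 0.0810. After centring, Emp1 and S100a10 kept their calls and Cd109, Clcf1 and B3gnt5 lost them.

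In the order of group means, PBS TBI day 3 was first for Ptx3, Emp1, S100a10, Clcf1 and B3gnt5, and CR2-Crry TBI day 3 was first for Cd109. The 2 day 3 groups overlapped for all 6 genes. Sham was last for all 6, with no overlap with the group above it. For S100a10 and Clcf1 there was a second gap without overlap, under the 2 day 3 groups, and among the other 4 injured groups each overlapped with the next in order, though for S100a10 PBS TBI days 7 and 28 did not overlap. For Ptx3 the second gap lay between PBS TBI day 7 and PBS TBI day 28. For Emp1 the gaps lay on either side of CR2-Crry TBI day 7, at 157 ± 13.3 (SD, n = 3) between PBS TBI day 7 at 255 ± 53.5 and CR2-Crry TBI day 28 at 123 ± 27.8. For Cd109 and B3gnt5 each injured group overlapped with the next in order, though groups farther apart in the order did not all overlap. B3gnt5 on day 3 of PBS TBI lay above days 7 and 28 of PBS TBI. Cd109 on day 3 of CR2-Crry TBI lay above days 7 and 28 of CR2-Crry TBI.

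Between the 6 genes, likeness was measured as the root-mean-square (RMS) difference of the log2 changes from sham over the 6 injured groups, which share their sham mice. Clcf1 and B3gnt5 were closest, at 0.21, followed by S100a10 and B3gnt5, also at 0.21, while Ptx3 and S100a10 were farthest apart at 1.40. Emp1 and Cd109, with nearly equal changes on day 7 of PBS TBI, were 0.53 apart. Over the 681 other named features tested, the gene most like Clcf1 was Tm4sf1, also of the A2 set, which encodes a membrane protein, at an RMS difference of 0.048. This is the smallest of 681 differences and is under the SE of the Clcf1 changes, 0.19, so the data do not resolve so close a likeness. The changes of Tm4sf1 were 1.56, 0.88 and 0.77 on days 3, 7 and 28 of PBS TBI, beside 1.54, 0.83 and 0.86 for Clcf1. The next closest to Clcf1 was Crip1 at 0.20.

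For S100a10 the nearest gene was Tgm2, a transglutaminase expressed in many tissues, at 0.093, followed by Mcm6 and Dna2, which encode a subunit of the replicative helicase and a nuclease-helicase, both at 0.12. Cd109 was nearest to Pdpn, which encodes the membrane glycoprotein podoplanin, and to S1pr3, a receptor for sphingosine 1-phosphate in the pan-reactive list, both at 0.17, followed by Hpgds at 0.18. B3gnt5 was nearest to Trim47 at 0.16, followed by Pmp22 and Ifitm2 at 0.18. Emp1 was nearest to C5ar1, the receptor for complement C5a, at 0.25, to the mitotic kinesin gene Kif2c at 0.27 and to the scavenger receptor gene Cd36 at 0.29. Ptx3 had no close neighbor: the nearest were Ifi30 at 0.55, the monocyte chemokine receptor gene Ccr2 at 0.56 and Pilra at 0.57.

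Other astrocyte genes were counted for comparison, to be read beside the 51.6%, 57.3% and 44.5% of all tested features called higher on days 3, 7 and 28 of PBS TBI. Of the other A2 genes, 5 of 7 were present by name, and on day 3 of PBS TBI 3 were called higher and 1 lower, with a median change of 1.56. The 1 not called was Slc10a6, at -0.24. Tgm1, an epidermal transglutaminase, rose by 6.13 (SE 0.27), the monocyte receptor gene Cd14 by 1.82 (SE 0.34) and Tm4sf1 by 1.56 (SE 0.086). Cd14 was 43.2, 35.0 and 146.5 in sham replicates 1, 2 and 3, and without replicate 3 its change on day 3 was 2.46 (SE 0.19). Ptgs2, which encodes the inducible cyclooxygenase, fell by 0.57 (SE 0.15) on day 3 and by 1.20 (SE 0.15) on day 28, so the A2 list as a whole did not move one way. Of 13 pan-reactive genes 10 were present by name, and Gfap was not. All 10 were called higher on days 3 and 7 and 9 on day 28, with medians of 2.17, 2.46 and 1.78. Of 13 A1 genes 8 were present by name, and C3 was not. Of these 8 named A1 genes 5 were called higher on each day, with medians of 0.73, 1.04 and 0.58. On day 3 the first of them were Psmb8, a subunit of the immunoproteasome, at 2.25 (SE 0.14), Srgn at 1.79 (SE 0.13) and the guanylate-binding protein gene Gbp2 at 1.61 (SE 0.17). The A1 genes called lower were Amigo2 on day 3 and H2-T23 on day 28, which are named here after their values were seen. Under CR2-Crry on day 7, 3 of 10 pan-reactive, 1 of 8 A1 and 0 of 5 other A2 genes were called lower than in PBS TBI, beside 7.16% of all tested features. Their median changes were -0.55, -0.28 and -0.33, beside -0.11 over all tested features. The A1 gene was Srgn, at -0.58 (SE 0.13), which encodes the proteoglycan serglycin.

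The partners of the 6 proteins were also taken as lists. Of the partners of pentraxin 3, C1qa, C1qb, C1qc and the Fc receptor genes Fcgr1, Fcgr2b and Fcgr3 were present, and all 6 were called higher than sham on each day of PBS TBI. On day 3 Fcgr1 rose by 2.40 (SE 0.14) and Fcgr2b by 2.39 (SE 0.21). These were 2.50 (SE 0.15) and 2.73 (SE 0.15) without sham replicate 3. C1qc, a chain of the first component of the classical pathway, rose by 2.38 (SE 0.12) on day 3, 2.95 (SE 0.12) on day 7 and 1.71 (SE 0.12) on day 28. Its changes were 2.50, 3.07 and 1.82 without sham replicate 3. C1qc was thus highest on day 7, where Ptx3 was lower than on day 3. For Clcf1, 3 genes of CNTF-type signaling were present (Socs3, Osmr and Il6ra), and all 3 were called higher on days 3 and 7 and 2 on day 28. Their order over days differed. Socs3, a feedback inhibitor of this pathway, was 1.49 (SE 0.24) on day 3, 0.86 (SE 0.24) on day 7 and 0.42 (SE 0.24) on day 28, where it was not called, though it was at 0.75 (SE 0.22) without sham replicate 3. Osmr, the oncostatin M receptor gene, was 2.95-, 2.84- and 1.72-fold above sham on the same days, and Il6ra, the interleukin-6 receptor gene, was 1.63-, 2.19- and 1.58-fold above. Sham replicate 3 had Osmr at 257 beside 98.3 and 86.5, so day 28, at 216 to 229, overlapped with sham. Without that sham mouse Osmr was 4.15-, 3.99- and 2.41-fold above. Between days 3 and 7, 1 of the 3 was called higher and none lower, with a median change of -0.054, while Clcf1 was called lower.

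Of the genes of TGF-beta signaling, in which Cd109 acts, Tgfb1 and Tgfbr1 were present and both were called higher on each day. Tgfb1 rose by 1.68 (SE 0.14), 2.06 (SE 0.14) and 1.02 (SE 0.14) on days 3, 7 and 28, and both genes were called lower with CR2-Crry on day 7, by 0.51 (SE 0.14) and 0.26 (SE 0.079), with adjusted p of 0.0361 and 0.0489. Of annexin and S100 genes, Anxa1 and S100b were present and both were called higher on each day of PBS TBI. Anxa1, which encodes annexin A1, an inhibitor of leukocyte entry, was 1.78 (SE 0.27) on day 3, and with CR2-Crry on day 7 it was -0.85 (SE 0.27) against PBS, with an adjusted p of 0.0568.

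Markers of other cell types also differed between the groups. The summed signal of 4 monocyte and macrophage markers (Ccr2, Msr1, Cd163 and Cd14, which is also an A2 gene) was 142 to 269 in sham mice, 785 to 951 on day 3, 629 to 693 on day 7 and 303 to 381 on day 28 of PBS TBI. On day 7 of CR2-Crry TBI it was 363 to 464, which did not overlap with PBS. All 4 were called higher on day 3, and 1 of the 4 was called lower with CR2-Crry on day 7. The sum of 8 microglial markers was 3787 to 4050 in sham mice, 11857 to 12761 on day 3 and 13861 to 17030 on day 7 of PBS TBI, and 12141 to 12670 on day 7 of CR2-Crry TBI. From day 3 to day 7 of PBS TBI, where 4 of the 6 genes were called lower, 4 of the 8 microglial markers were called higher and 1 lower. The sum of 5 endothelial markers was 2272 to 2503 in sham mice, 3323 to 3534 on day 3 and 2412 to 3409 on day 7, which overlapped with sham. The sum of 6 neuronal markers was 27854 to 28445 in sham mice and 22298 to 23170 on day 3, with 5 of 6 called lower. The astrocyte sum on day 7 was 25122 to 29285 in PBS and 24365 to 25222 in CR2-Crry TBI, and 0 of its 5 genes were called between them. The part of these cell types in the levels of the 6 genes was not tested, and no fibroblast or pericyte marker of the list was present by name.

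Within groups, 5 of the 21 mice were highest or lowest of their group for 4 of the 6 genes. With 3 mice a group some are so by order alone, and whether 5 is more than that was not tested. In CR2-Crry TBI day 3, replicate 3 was highest for 4 and replicate 2 lowest for 4, and their median features were 419 and 374, the highest and lowest of the group. In CR2-Crry TBI day 28, replicate 1 was highest for 4 and replicate 2 lowest for 4, again with the highest and lowest median feature, 339 and 294. Sham replicate 1 was highest for 4 genes with the lowest median feature of its group, 242. In the PBS TBI groups no mouse was highest for more than 3 genes or lowest for more than 2.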

How the data were processed

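RNA of 21 hemispheres was measured by the authors with the nCounter panel, and the deposited values are normalized signal: per the study's methods, counts underwent background thresholding in nSolver and were scaled by the geometric mean of housekeeping genes. No floor from thresholding was visible in the deposited values. The lowest was 2.14, and the lowest value of a sample occurred at most 3 times. All 21 sample columns were used and 0 were left out. Values of a sample were whole multiples of 1 step (tolerance 0.0075) for at least 99.87% of features, and the totals in steps were 750585 to 1023041.

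Features over 20 in at least 3 samples were tested. Values were taken to log2 with a pseudocount of 0. A model with a mean for every group was fitted to the 21 samples in limma 3.58.1 (R 4.3.3), with empirical Bayes moderation and a trend, with Benjamini-Hochberg adjustment over 740 features and a threshold of 0.05. Comparisons were each injured group against sham, treatments on each day and on average, days within a treatment, and treatment effects between days. Scaling to housekeeping genes assumes that these are stable, so centring on the sample median was also run. Centring assumes in turn that the median feature is stable.

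Every member is reported. Other genes were named from lists of A1, A2 and pan-reactive genes and of partners, as counts with the values of at most 4 by size of change, and as the 3 features most like each member. The members and lists were chosen with earlier results of these data known. Fits were tested on simulated data. Alternatives were a pseudocount of 20, no filter, a mean of at least 50, no trend, the groups compared alone, sample weights, no moderation, adjustment over small p-values only, median centring, a replicate block, and each replicate left out. Limma voom on step counts was added after seeing the data. Promoters were from RefSeq. Python 3.11.15 read the tables. Replicates are separate mice, numbered by the labels.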

Additional observations from a re-analysis of the deposited data

How the results depend on the processing

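Each of the 19 counts of genes called was recomputed under 11 alternatives, or 10 where 2 groups were not compared directly. Centring on the sample median gave 3 of 6 genes called against sham on day 28 of PBS TBI, 3 on day 7 and 3 on day 28 of CR2-Crry TBI, 3 for PBS TBI day 28 against day 3, 2 for CR2-Crry TBI day 28 against day 7 and 2 for day 28 against day 3. It reversed S100a10, to -0.14 and -0.076 against sham on day 7 of PBS and CR2-Crry TBI and to 0.17 and 0.15 on day 28 against day 7. Without moderation (an unequal-variance test), 3 and 2 genes were called against sham on day 28 of PBS and CR2-Crry TBI, 0 for CR2-Crry against PBS on day 7, 0 and 2 for PBS TBI day 7 and day 28 against day 3, and 2 and 0 for the same in CR2-Crry TBI. For CR2-Crry against PBS on day 7, where 1 gene was called, the count was 0 without the trend, 0 with the replicate block, 2 with the 2 groups fitted alone and 2 with adjustment over small p-values only. That adjustment, which calls every gene it keeps, gave 1 for the average over days, 1 for CR2-Crry TBI day 28 against day 7, 2 for the effect of day 28 against day 7 and 1 for that against day 3. Sample weights gave 1 for the effect of day 28 against day 7. The count was within 1.5 times the reported one in the other 183 of these fits. Under a mean of at least 50 Clcf1 was not tested.

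Leaving out 1 mouse gave 5 to 6 genes against sham on day 28 of either treatment and 6 on the other days, 0 to 1 for CR2-Crry against PBS on day 7 and 0 on days 3 and 28 and on average. It gave 3 to 5, 2 to 3 and 5 for PBS TBI day 7 against 3, 28 against 7 and 28 against 3, and 4 to 5, 0 to 1 and 3 to 5 in CR2-Crry TBI. The effect of day 28 against day 7 had 0 to 2 and the other effects 0. The replicate block changed no other call: Emp1 on day 7 had an adjusted p of 0.0545. Same-numbered mice had correlations of -0.405 to 0.229 over 63 pairs, with 11 over 0.1. Differently numbered mice had -0.258 to 0.325 over 126 pairs, with 32 over 0.1. The numbers thus gave no sign of pairing, which 3 mice a group cannot settle. The planned negative binomial count model was not run, because the deposited unit is scaled signal; limma voom on step counts took its place and lost 1 call, B3gnt5 against sham in CR2-Crry TBI on day 28 (adjusted p = 0.0610), and gained 3 between days. With 3 mice a group and step counts of 12 to 43 in sham, small differences of Clcf1 and B3gnt5 could not be seen.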
